A study of Mus musculus with 8 samples.

Results

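The genes examined start, restrain or localise clot breakdown and clot formation: Plat, Plau, Plaur, Serpine2, Serpinf2, F3, Tfpi, Tfpi2 and Thbd. They are 9 of 27962 distinct gene names on the array, and every probe that carries one of the 9 names in the scanner files was kept, 18 in all. Of these 18 probes, 13 from 7 genes passed the filter on dim signal and were tested, and 5 did not, so that Serpine2 and Tfpi2 had no tested probe. The values come from 8 one-colour arrays of primary vascular smooth muscle cells, the contractile cells of the arterial wall, cultured from the aortas of C57BL/6 mice. In the AngII group 4 cultures received 1 µM angiotensin II, a peptide hormone that contracts arteries, and in the AngII+CsA group 4 cultures received 1 µM angiotensin II with 200 ng/ml cyclosporin A, which inhibits the calcium-dependent phosphatase calcineurin. All 8 cultures therefore carried angiotensin II, and a group without it was not analysed here. The labels describe independent cultures numbered 1 to 4 in each group, and arrays with the same number also share a slide and a scan, so number and slide cannot be told apart.

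Plasmin, the protease that dissolves fibrin, is cut from plasminogen by the tissue-type activator (Plat) or the urokinase-type activator (Plau), the latter held at the cell surface by its receptor (Plaur). Protease nexin 1 (Serpine2) blocks the activators and thrombin, and alpha-2-antiplasmin (Serpinf2) blocks plasmin itself. Tissue factor (F3) starts coagulation with factor VII and is inducible in vascular smooth muscle, tissue factor pathway inhibitor (Tfpi) restrains that step, Tfpi2 inhibits plasmin and other proteases, and thrombomodulin (Thbd) turns thrombin towards activating protein C.

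The F3 result rests on a pair of probes that are not independent, and their shared stretch is shown for that reason. Both are 60 bases long on the plus strand of chromosome 3 in build mm7, at 121503205-121503264 for A_51_P236846 and at 121503165-121503224 for A_52_P683413. They share 20 positions, 121503205-121503224, written 5′ to 3′ with the letters that differ in capitals:
F3 A_51_P236846: ggacgaacTgaaacGgtaca
F3 A_52_P683413: ggacgaacGgaaacCgtaca
The 2 differences are T9G and G15C, with the base of A_51_P236846 first and positions counted from its 5′ end. Which of the sequences matches the mouse genome at these bases was not looked up here.

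Also shown are 3 member probes that lie on a genomic span over 100 bases longer than their own 60 (the span of a Plat probe is 61), so that each joins stretches apart in the genome, and 1 of Tfpi, since it was one of the 2 member probes with a higher signal under cyclosporin A in every pair. In mm7 they lie at chr7:21262233-21262410 on the plus strand (Plaur, a span of 178 bases), chr14:18497190-18497556 on the plus strand (Plau, 367 bases), chr1:80011225-80013842 on the minus strand (Serpine2, 2618 bases) and chr2:84297521-84297580 on the minus strand (Tfpi). Exon and transcript annotation in that build was not used here. No letter is singled out in these sequences:
Plaur A_51_P112405: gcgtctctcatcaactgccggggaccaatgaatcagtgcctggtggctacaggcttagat
Plau A_51_P305311: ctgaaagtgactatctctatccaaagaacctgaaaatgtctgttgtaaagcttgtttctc
Serpine2 A_51_P268094: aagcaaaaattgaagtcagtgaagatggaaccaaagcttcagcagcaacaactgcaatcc
Tfpi A_52_P592007: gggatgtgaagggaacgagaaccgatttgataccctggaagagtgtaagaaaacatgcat

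No member probe passed the test between AngII+CsA and AngII. Levels are log2 of the processed signal minus the array's 75th percentile of it, a difference is AngII+CsA minus AngII, and p-values are from limma with replicate number as a block, adjusted with Benjamini-Hochberg over all 19531 tested probes at a threshold of 0.05. At that threshold 0 of 13 member probes were called, and 0.0102% of all tested probes (2 of 19531, Rcan1 and Serpinb1c, both lower). The limma fit gave an unadjusted p under 0.05 for 1 of the 13, that of Thbd, beside 4.99% of all tested probes, and without the block it gave 0 called members and 0 under an unadjusted 0.05. Thbd stood higher with cyclosporin A in all 4 pairs, Plau lower in 3 of 4, and the signals of F3, Plaur and Plat differed by at most 0.16 on average. The 13 differences had a median of 0.05 and a median size of 0.13, with 6 negative and 7 positive, and all 13 lay within 0.5 of 0. Over all tested probes the median was -0.02, the median size 0.11, and 97.2% lay within 0.5. The 95% intervals of the member probes left room for changes of at most 1.29-fold to 1.58-fold, depending on the probe.

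**Figure D1:**
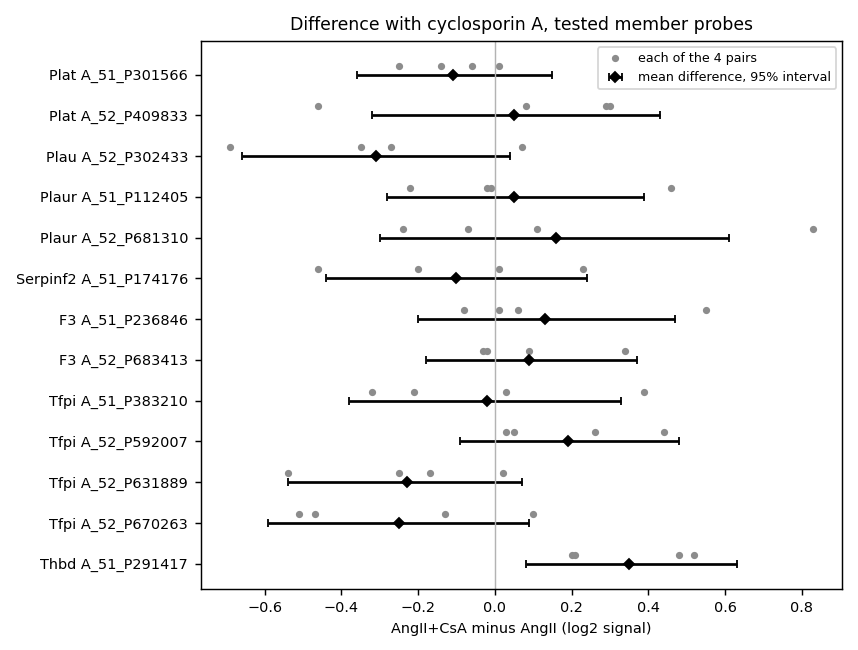
Difference between AngII+CsA and AngII in log2 signal (x axis) for the 13 tested member probes (rows). Diamonds are means over 4 pairs with the 95% interval of the limma fit, and grey points are the 4 pairs; only the interval of Thbd, 0.08 to 0.63, leaves out 0.

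Rcan1, a calcineurin-responsive gene that encodes a calcineurin inhibitor, was measured in the same arrays as a check of the labels. Its brighter probe read 4.55, 4.44, 5.69 and 5.35 in the AngII cultures and 2.15, 2.32, 3.68 and 2.83 in the AngII+CsA cultures, in order of replicate number. The groups did not overlap, and Rcan1 fell by 2.26 on the log2 scale (95% interval -2.57 to -1.95, limma adjusted p = 0.0214, n = 4 pairs); without the block the adjusted p was 1, and with any 1 replicate number left out 0 probes were called. The dimmer Rcan1 probe differed by -1.51 (limma adjusted p = 0.241).

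The arrays stood apart by replicate number before any member was considered. Both arrays of number 1 lay at one end of principal component 1 (52.8% of the variance), at -95.1 and -73.4, with the other 6 between -3.19 and 58. From 42.8% to 51.7% of the 43379 spots were well above background, and precision is limited by having 8 arrays. Of the smooth muscle markers, 8 of 9 were tested. The signal summed over all 9, in units of the array's 75th percentile, was 291 to 1380 in AngII and 222 to 1210 in AngII+CsA. The sums of the other lists also take in markers that were not tested. The adventitial fibroblast markers had the largest sum of the non-muscle lists, 42 to 134 in AngII and 39.2 to 111 in AngII+CsA. Of these, Cd34 and Ly6c1 were above background on no array. The macrophage markers summed to 6.96 to 11.9 and 6.69 to 10.8, with Adgre1, Itgam and Fcgr1 above background on no array. The T cell markers summed to 0.929 to 2.05 and 0.913 to 1.36, and the platelet markers to 0.159 to 0.356 and 0.125 to 0.314, with Gp9, Pf4, Ppbp and Gp1ba above background on no array. In such bulk samples, fewer cells of a type and less RNA per cell cannot be told apart.

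Plat, the tissue-type activator, was measured by A_51_P301566 (chr8:21567937-21567997). Its levels were 2.80, 2.73, 3.80 and 3.48 in AngII and 2.74, 2.74, 3.66 and 3.24 in AngII+CsA. Numbers 3 and 4 were higher than 1 and 2 in both groups, and the groups overlapped. The mean was 3.20 ± 0.53 (SD, n = 4) in AngII and 3.1 ± 0.44 (SD, n = 4) in AngII+CsA, a difference of -0.11 (95% interval -0.36 to 0.15, limma adjusted p = 0.934). A dim Plat probe, A_52_P409833 (chr8:21567376-21567435), was above background on 3 arrays of each group and differed by 0.05 (limma adjusted p = 0.974). Its means over each numbered pair, -2.78, -2.03, -2.89 and -1.26, did not follow those of the bright probe (2.77, 2.73, 3.73 and 3.36). The third Plat probe, A_52_P405772 (chr8:21561146-21561205), was above background on no array.

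Plau, the urokinase-type activator, was measured by A_52_P302433 (chr14:18499577-18499636). It read 1.19, 1.32, 3.12 and 2.98 in AngII and 1.26, 0.97, 2.86 and 2.28 in AngII+CsA. Numbers 3 and 4 again stood above 1 and 2 in both groups, and within pairs the cyclosporin value was the lower one in numbers 2, 3 and 4. The mean was 2.15 ± 1.04 (SD, n = 4) against 1.84 ± 0.88 (SD, n = 4), and the paired differences were 0.07, -0.35, -0.27 and -0.69. Their mean, -0.31 (SE 0.15, 95% interval -0.66 to 0.04), was 1.24-fold and did not pass the test (limma unadjusted p = 0.0727, adjusted p = 0.927). Without replicate 4 the difference was -0.18, and without replicate 1 it was -0.44 (limma unadjusted p = 0.0177, adjusted p = 0.869). The other Plau probe, with the long genomic span, printed above, was above background on no array.

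Over the 8 arrays, the bright Plat probe and this Plau probe had a Pearson r of 0.98, given as a description, since the 8 arrays form 4 pairs that share slides and separate mainly by number. Plau had number means of 1.23, 1.14, 2.99 and 2.63, with 3 highest and 4 next, as for Plat. For both genes numbers 1 and 2 lay close together, and which of them was lower did not hold in each group. The dim tested Plat probe had a Pearson r of 0.12 with Plau. Other member pairs were also far from 0, such as Tfpi A_52_P670263 with the bright Plat probe (-0.92) and with the bright Plaur probe (-0.94).

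Plaur, the urokinase receptor, was bright on the probe with the longer genomic span, A_51_P112405. It read 4.05, 4.76, 5.46 and 4.92 in AngII and 4.52, 4.75, 5.24 and 4.90 in AngII+CsA. The number 1 pair was lowest and number 3 highest in both groups, and cyclosporin lay above only in number 1. The mean was 4.80 ± 0.58 (SD, n = 4) against 4.85 ± 0.30 (SD, n = 4), a difference of 0.05 (95% interval -0.28 to 0.39, limma adjusted p = 0.971). The other Plaur probe, A_52_P681310 (chr7:21263487-21263546), was dim, above background on 3 arrays of each group, and differed by 0.16 (limma adjusted p = 0.943). It placed the numbers in another order, with means of -2.09, -3.08, -3.67 and -3.00 for numbers 1 to 4 where the bright probe had 4.29, 4.76, 5.35 and 4.91. The Plaur probes thus disagree on which numbered pair was highest, and the statement on Plaur levels between replicate numbers holds for the bright probe alone.

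Among the inhibitors, Serpinf2 (A_51_P174176, chr11:75513551-75513610, minus strand) was dim but above background often enough to be tested. It read -1.77, -1.37, -2.11 and -2.03 in AngII and -1.54, -1.57, -2.57 and -2.02 in AngII+CsA. No order of the groups held over the pairs, with 2 differences above 0 and 2 below. The mean was -1.82 ± 0.33 (SD, n = 4) against -1.93 ± 0.48 (SD, n = 4), and the difference was -0.10 (95% interval -0.44 to 0.24, limma adjusted p = 0.944). Serpine2 was well above background on 1 of 4 arrays in each group, with processed signals of 10.2, 2.96, 1.77 and 2.1 in AngII and 10.3, 2.04, 1.99 and 8.05 in AngII+CsA. It was not tested, and both number 1 arrays were among the 3 with a signal over 8. This probe covers 2618 genomic bases with its 60 letters, and its low signal says only that this sequence was not well above background.

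F3, tissue factor, varied more between replicate numbers than nearly any other tested probe and little between treatments. Among the members it was not the most variable: the dim Tfpi probe A_52_P670263 had a larger SD between numbers (1.60, with 99.5% of tested probes smaller). On A_51_P236846 it read 2.15, 5.08, 3.16 and 4.87 in AngII and 2.15, 5.15, 3.71 and 4.79 in AngII+CsA. Numbers 2 and 4 were high and number 1 low in both groups, and the groups overlapped throughout. The mean was 3.82 ± 1.41 (SD, n = 4) against 3.95 ± 1.34 (SD, n = 4), a difference of 0.13 (SE 0.14, 95% interval -0.20 to 0.47, limma adjusted p = 0.938); the pair of number 3 differed by 0.55 and the others by -0.08 to 0.06. Without replicate 3 the difference was 0.00 to 2 decimals.

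The number means of this F3 probe were 2.15, 5.12, 3.44 and 4.83, a range of 2.96 on the log2 scale or 7.80-fold. Their SD was 1.37, against an SD of 0.28 for the 4 paired differences, and 98.7% of tested probes had a smaller SD between numbers. Leaving number 1 out, the other numbers still spanned 3.44 to 5.12. A_52_P683413 read 0.21, 3.47, 1.29 and 3.18 in AngII and 0.29, 3.45, 1.62 and 3.14 in AngII+CsA, the same order of numbers. Its treatment difference was 0.09 (95% interval -0.18 to 0.37, limma adjusted p = 0.943), its range between numbers 9.27-fold, and 99.3% of tested probes had a smaller SD between numbers. The F3 probes share 20 positions, as printed above, so their likeness (Pearson r of 0.997 over 8 arrays) is not an independent repeat.

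**Figure D2:**
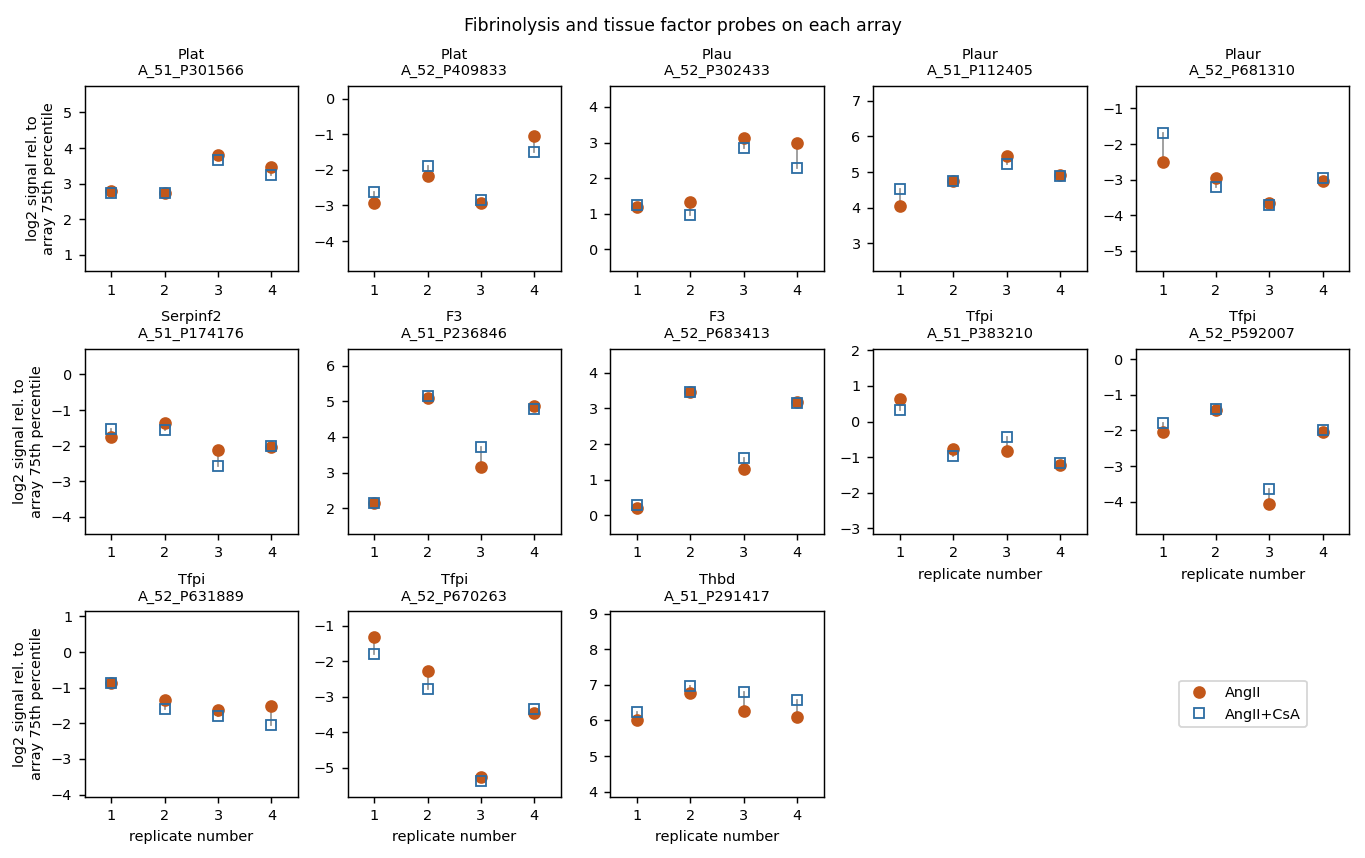
Level of each of the 13 tested member probes (y axis, log2 of the signal over the 75th percentile of its array; panels start at different values but have the same height in log2) by replicate number (x axis), with filled circles for AngII, open squares for AngII+CsA and a line joining each pair. In the F3 panels the symbols of a pair nearly coincide, while the mean of number 1 lies 2.96 below that of number 2 on A_51_P236846.

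Tfpi, the inhibitor of the tissue factor step, had 5 probes on the minus strand of chromosome 2, of which 4 were tested and none was called. The brightest, A_51_P383210 (chr2:84286677-84286736), read 0.64, -0.76, -0.82 and -1.21 in AngII and 0.32, -0.97, -0.43 and -1.17 in AngII+CsA. Number 1 was highest in both groups, where F3 was lowest, and the difference was -0.02 (95% interval -0.38 to 0.33, limma adjusted p = 0.984). A_52_P592007 read -2.05, -1.44, -4.07 and -2.03 in AngII and -1.79, -1.41, -3.63 and -1.98 in AngII+CsA. This probe was higher with cyclosporin in 4 of 4 pairs by 0.26, 0.03, 0.44 and 0.05, on average 0.19 (95% interval -0.09 to 0.48, limma adjusted p = 0.928), and it was above background on 3 arrays of each group. The mean was 0.11 without replicate 3 and turned to -0.09 with normexp background correction.

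The other tested Tfpi probes leaned the other way without passing the test. A_52_P631889 (chr2:84317419-84317478) differed by -0.23 (95% interval -0.54 to 0.07, limma adjusted p = 0.927). A_52_P670263 (chr2:84284581-84284640) differed by -0.25 (95% interval -0.59 to 0.09, limma adjusted p = 0.927) and was above background on 2 of 4 AngII and 3 of 4 AngII+CsA arrays. Its number means were -1.56, -2.52, -5.31 and -3.41, the value of number 3 lying below the lowest signal that was well above background on any array (-4.03). A_52_P191353 (chr2:84282417-84282476) was above background on 1 AngII array and no AngII+CsA array and was not tested. With normexp background correction all 4 tested Tfpi differences were negative (-0.07, -0.09, -0.18 and -0.25), so the split in direction holds for the processed signal only. The Tfpi probes did not share an order of the numbers: number 1 was highest on 3 of the 4 tested probes and number 2 on A_52_P592007. Tfpi2 (A_51_P216496, chr6:3918088-3918147) was above background on no array, with processed signals of 1.94 to 2.46.

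Thbd, thrombomodulin, was a bright member (A_51_P291417, chr2:148145356-148145415, minus strand) and had the largest mean difference of the 13. It read 6.01, 6.77, 6.27 and 6.10 in AngII and 6.23, 6.97, 6.79 and 6.58 in AngII+CsA. The cyclosporin value was higher in each pair, by 0.21, 0.20, 0.52 and 0.48, while the groups overlapped. The mean was 6.29 ± 0.34 (SD, n = 4) against 6.64 ± 0.32 (SD, n = 4), a difference of 0.35 (SE 0.11, 95% interval 0.08 to 0.63) or 1.28-fold. This did not pass the test (limma unadjusted p = 0.0198, adjusted p = 0.927), and by p it ranked 354 among all tested probes. An exact two-sided permutation of 4 against 4 arrays gave p = 0.2, where the smallest possible is 0.0286, and exact sign flips over the 4 pairs gave p = 0.125, the smallest they can give. Without replicate 1, whose arrays stood apart, the difference was 0.40 (limma unadjusted p = 0.0171, adjusted p = 0.869), and without replicate 2 it was 0.41 (limma unadjusted p = 0.0359). It was 0.30 without replicate 3 (limma unadjusted p = 0.0684) and 0.31 without replicate 4 (limma unadjusted p = 0.109). The unadjusted p under 0.05 thus depended on which pairs were kept.

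Thrombomodulin is best known from endothelium, so endothelial markers stand beside it. Pecam1, Cdh5 and Tie1 were above background on no array, and 5 of 9 endothelial markers were tested. All 5 had a negative difference (median -0.22, from -0.36 for Emcn to -0.03 for Nos3) beside 54.5% of all tested probes. The summed level of all 9 markers, tested or not, was 0.904 to 1.14 in AngII and 0.771 to 0.924 in AngII+CsA. These markers were dim, and probes at background also ran slightly negative (median -0.13). The part of endothelial cells in the Thbd values was not tested.

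Read against all tested probes, 0 of 13 member probes were lower with cyclosporin in 4 of 4 pairs, where the background was 9.45%. Of the 13, 2 probes, those of Thbd and Tfpi, were higher in 4 of 4 pairs, where the background was 4.98%, the Tfpi value being the one that turns with normexp. None of the 13 separated the groups without overlap, as 0.394% of all tested probes did. The dim probes need a caution of their own: over the 17074 probes above background on no array, the paired differences had medians of -0.06, -0.18, -0.18 and -0.11, and 60.5% were lower in all 4 pairs. The background-level probes of Plat (-0.08, -0.18, -0.18 and -0.14), Plau (-0.08, -0.17, -0.42 and -0.11) and Tfpi2 (-0.05, -0.19, -0.20 and -0.09) show the same run of small negative values, so these are no measure of the genes.

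Between replicate numbers the members did differ. A limma F test between the 4 numbers, with treatment in the model, was added after the values were seen. It called 13 of 13 member probes, beside 66.6% of all tested probes, with limma adjusted p from 0.000783 for F3 (A_52_P683413) to 0.0293 for Serpinf2. Thbd differed least between numbers, by 0.75 on the log2 scale or 1.68-fold (limma adjusted p = 0.0286), and Plau 3.59-fold (limma adjusted p = 0.00257). In 13 of 13 probes the SD of the number means exceeded the SD of the paired differences. The share of all tested probes with this order was not computed. Their median SDs, 0.41 for number means and 0.27 for paired differences, stood in the same order. The count of 13 of 13 is therefore not read as a trait of the members. The lowest number was 1 in 4 of the 13 probes and the highest was 1 in another 4. These probes are not separate genes: both overlapping F3 probes are among the lowest, most of the highest are Tfpi probes, and the Plaur probes fall on opposite sides. The counts were not made over all tested probes and describe these probes only.

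**Figure D3:**
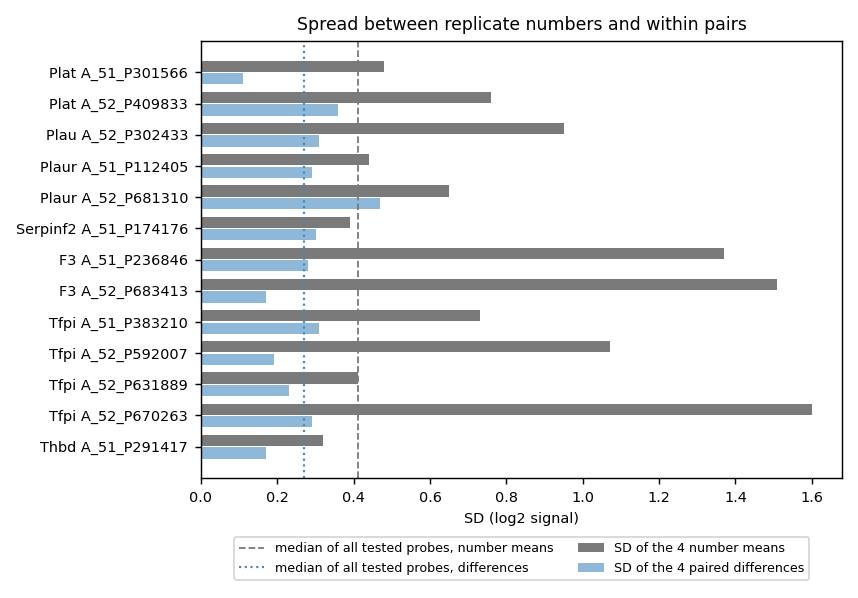
SD in log2 signal (x axis) of the 4 number means (grey bars) and of the 4 paired treatment differences (blue bars) for the 13 tested member probes (rows). Lines mark the medians over all tested probes, 0.41 for number means (dashed) and 0.27 for paired differences (dotted); the grey bar is the longer of the pair in every row.

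Markers of cell types also differed between the numbers. In order of number 1 to 4, Acta2 (smooth muscle actin) had means of 5.59, 7.19, 8.75 and 8.49, and Cnn1 (calponin) 4.55, 6.63, 7.47 and 7. Lum (lumican, a fibroblast matrix gene) had 4.51, 3.15, 2.62 and 3.17, and Pdgfra (a receptor for platelet-derived growth factor found on fibroblasts) 6.61, 5.49, 5.46 and 4.94. Number 1 was lowest for 7 of the 8 tested smooth muscle markers, the exception being Myh11 (smooth muscle myosin, 0.53, 0.64, 0.48 and -0.06). Of the 3 tested fibroblast markers it was highest for Lum and Pdgfra and lowest for Pi16 (-0.79, -0.49, -0.56 and -0.52). These means pool both treatments, and Cnn1 also stood lower with cyclosporin in 4 of 4 pairs, by -2.70, -1.51, -1.29 and -1.34, on average -1.71, which did not pass the test (limma unadjusted p = 0.000351, adjusted p = 0.479). Members differed in how they stood beside Acta2. The bright Plaur probe was lowest in number 1 and highest in number 3, as Acta2 was, and the bright Plat probe and the tested Plau probe were also highest in number 3. F3 was lowest in number 1 and highest in number 2. The tested macrophage markers Cd14 (2.55, 2.30, 3.17 and 2.73), Cd68 (-0.26, 0.59, 0.63 and 0.62) and Csf1r (-1.41, -0.75, -0.49 and -0.54) differed as well. The other macrophage markers, Adgre1, Ptprc, Itgam and Fcgr1, were too dim to be tested. The part of these markers in the members' spread was not tested.

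The probes most like each member over the 8 arrays are named by Pearson r alone, which mainly follows the separation of the numbers. For F3 they were Ube2r2 (0.990), Relb (0.989) and Olfr1122 (0.989). For Plat they were Gmppb (0.995), Tysnd1 (0.994) and G0s2 (0.992), and for Plau Ube4b (0.991), Acat3 (0.984) and Col3a1 (0.983). Those for Plaur were Rps6kb2 (0.997), Dedd2 (0.995) and Tead2 (0.995), and those for Tfpi were Sppl2a (0.996), Ssbp1 (0.995) and Pip4p2 (0.995). Serpinf2 had Irgm1 (0.970) and Rnf19a (0.970), and Thbd had Adarb2 (0.979), Nt5e (0.935) and Pla2g2e (0.928), so that Thbd had the weakest likeness of the 7 genes beyond its closest probe.

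Of 20 other fibrinolysis genes, 11 had a tested probe and 0 were called, with 5 positive and 6 negative differences and a median of 0.00. Cpb2, the carboxypeptidase that protects fibrin from lysis, had the smallest p of the list, with a difference of -0.34 and 4 of 4 pairs lower (limma unadjusted p = 0.0388, adjusted p = 0.927). Hrg, a plasma glycoprotein that binds plasminogen, differed by -0.15 and was lower in 4 of 4 pairs (limma unadjusted p = 0.218). Plgrkt, a plasminogen receptor, differed by 0.11 and was higher in 4 of 4 (limma unadjusted p = 0.314). Mrc2, a collagen receptor that associates with Plaur, differed by 0.17 on its brightest probe and 0.38 on another.

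Of 31 other coagulation genes, 19 had a tested probe and 0 were called. Of the differences, 17 were negative and 2 positive, with a median of -0.08, where 54.5% of all tested probes were negative. Some lay next to 0, as for Anxa5 (0.00), Pros1 (-0.01) and F9 (-0.03). Others came from dim probes, such as those of Vwf, Fgb, F2rl2 and F2rl3, of which F2rl2 and F2rl3 were above background on 4 of 4 arrays in each group. Probes above background on no array also ran slightly negative (median -0.13). Of the 19 genes, 4 were lower in 4 of 4 pairs and 0 were higher in 4 of 4, beside 9.45% and 4.98% of all tested probes. A shared fall of the list was not tested. Procr, the receptor that presents protein C to the thrombin-thrombomodulin complex, read 0.47, 1.01, -0.88 and 1.58 in AngII and -0.42, 0.40, -0.90 and 1.06 in AngII+CsA. Each cyclosporin value was the lower one of its pair, though hardly so in number 3, and the groups overlapped. Its difference of -0.51 (SE 0.16) had the opposite sign to that of Thbd and did not pass the test (limma unadjusted p = 0.0164, adjusted p = 0.927). Vwf, the platelet-binding protein of endothelium, differed by -0.32 (limma unadjusted p = 0.0295, adjusted p = 0.927), its other probes being above background on 1 array or none. The protease-activated receptors F2rl2 and F2rl3 differed by -0.21 (limma unadjusted p = 0.0793) and -0.24 (limma unadjusted p = 0.097).

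**Figure D4:**
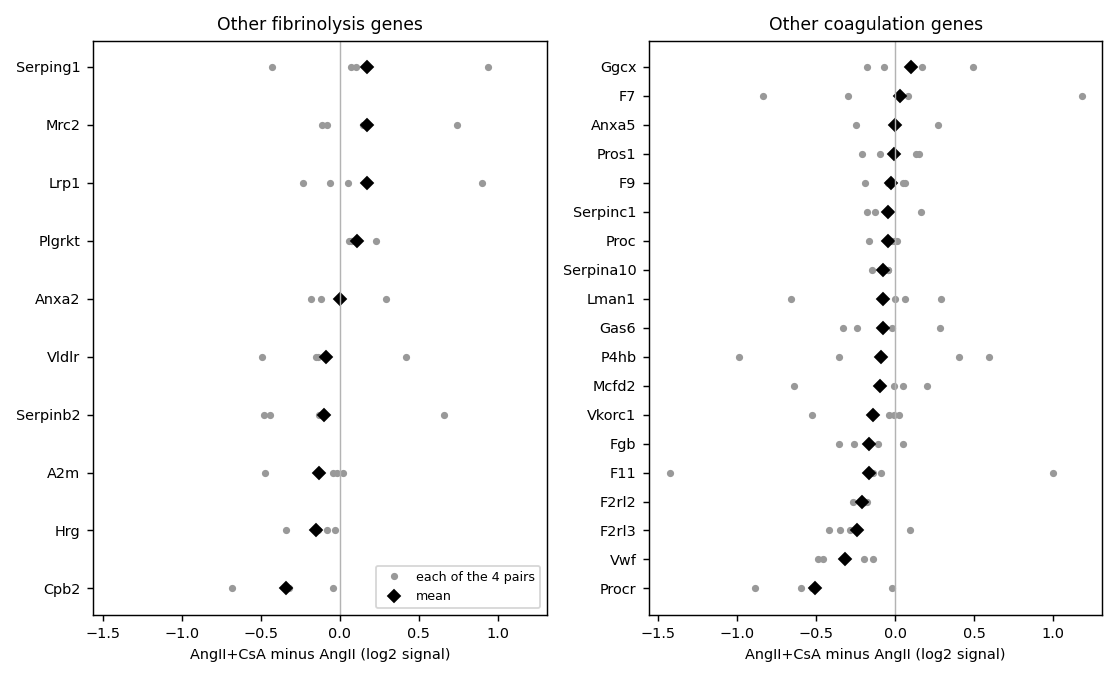
Difference between AngII+CsA and AngII in log2 signal (x axis) for the brightest tested probe of each gene (rows) of the fibrinolysis list, 10 of its 11 tested genes, and the coagulation list, 19 genes; grey points are the 4 pairs and diamonds their mean. The means run from -0.34 (Cpb2) to 0.17 in the first list and from -0.51 (Procr) to 0.10 (Ggcx) in the second, and none was called.

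RefSeq promoter windows (GRCm38.p6, from 250 bases before to 50 after a start) were matched for 6 of the 9 members (Plaur, Serpine2, Serpinf2, F3, Tfpi and Tfpi2), 9 windows in all. They were searched on both strands for the core bound by NFAT, the factor that calcineurin activates (GGAAAA, in 23.4% of 32851 windows), AP-1 (TGANTCA, 7.8%), NF-kB (by name, 7%), Sp1 (GGGCGG, 35.7%) and EGR (by name, 3.5%). No member window held a GGAAAA or an NF-kB match. The F3 window held 2 AP-1 and 3 Sp1 matches. F3 varied widely between replicate numbers, which cannot be told apart from slides, on its overlapping probes. The 160 bases before the F3 start, chr3:121723377-121723536 on the plus strand, are shown for that reason, with AP-1 and Sp1 letters in capitals:
F3 promoter: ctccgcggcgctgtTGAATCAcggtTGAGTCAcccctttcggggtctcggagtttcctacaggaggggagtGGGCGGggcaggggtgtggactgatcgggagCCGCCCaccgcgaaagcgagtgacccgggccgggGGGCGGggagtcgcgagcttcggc
Plaur held 1 AP-1, 3 Sp1 and 1 EGR match, Serpine2 6 Sp1 and 1 EGR, and each Tfpi window 1 Sp1. One of the Tfpi2 windows held 1 AP-1, 2 Sp1 and 1 EGR match. These are matches of letters only.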

How the data were processed

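RNA of 8 cultures was hybridised to Agilent arrays of design 014868 and quantified with Feature Extraction 9.5.3.1, per the file headers. The deposited scanner files give intensity values on a linear scale (processed, mean and local background signal). A log2 table of the same arrays, deposited by the authors, ranks the probes as the scanner files do (Spearman rho of 1.00), has a median of 3.01 on every array and differs by at most 0.00185 between arrays after sorting. Its values are thus quantile-normalized. Its background handling and scale constant stay unknown, and it served as an alternative.

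Computed here: the log2 of each processed signal, less its array's 75th percentile, without control and outlier spots, averaged over the spots of a probe. Of 41174 probes, 19531 were above background on at least 4 of 8 arrays, with at least 2 complete pairs, and were tested. Names came from the accession for 22951 probes, were current for 6659 and were kept for 11564. The test was limma (version 3.58.1, run in R 4.3.3), two-sided, through lmFit and eBayes, with replicate number as a block, since the comparison is paired by number. Once group means were taken out, arrays of one number correlated at 0.70 to 0.86 and others at -0.76 to 0.25, and the number comes from the labels. The procedure was tested on simulated data with added changes larger than any member difference, which does not measure its power for differences of the members' size. The F test between numbers and the summary of probes at background were added after values were seen.

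Named genes are the members, Rcan1, the 4 genes with the smallest p of each pathway list, and the 3 genes with the highest correlation to a member; some genes that the rule names are not reported here. The pathway lists and marker lists, like the members, were chosen with earlier results of these data known. Alternatives covered background correction, scaling, the filter, outlier spots, the block, the variance model, the probe choice, the authors' table and leaving out each replicate number.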

Additional observations from a re-analysis of the deposited data

How the results depend on the processing

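Of 185 member differences under 15 alternatives, 172 kept their sign and 0 were called. The other 13, from 8 probes, reversed in sign, each in a value that was never called, and the cause was not tested. Alternatives that change only the filter, the block, the variance model or the probe choice leave each difference as it was. The 172 therefore include values whose sign could not turn, and the count is no measure of how firmly the directions held. With normexp background correction (offset 50) the reversed values were -0.13 for Plaur A_52_P681310, 0.01 for Plat A_51_P301566, -0.09 for Tfpi A_52_P592007 and -0.13 for Plat A_52_P409833, and with scaling to the array median 0.08 for Tfpi A_51_P383210. Leaving out each replicate number in turn gave -0.16 to 0.07 for Tfpi A_51_P383210, -0.07 to 0.29 for Plaur A_52_P681310, -0.08 to 0.14 for Plaur A_51_P112405, -0.03 to 0.22 for Plat A_52_P409833, 0 to 0.21 for F3 A_51_P236846 and -0.22 to 0.01 for Serpinf2. The Thbd difference stayed between 0.30 and 0.47 with a smallest limma adjusted p of 0.157. Without the replicate block its unadjusted limma p was 0.216.

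Over all tested probes, 2 were called. The count was 0 without the replicate block (59 at an unadjusted limma p under 0.05), 8 with a random replicate block, 0 with no filter on dim probes, 4 with probes above background on all 8 arrays, 6 with a trended and robust variance, 4 with 1 probe per gene, and 0 to 0 when each replicate number was left out. Signal over background limits Serpine2, Tfpi2 and the dim probes of Plat, Plau, Plaur and Tfpi.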
